A study of Mus musculus with 2 samples.

Results

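Fibro-adipogenic progenitors (FAPs) of mouse quadriceps muscle were examined at day 1 after acute injury. The cells were selected on their own RNA in the day 1 library, as those with at least 1 unique molecular identifier (UMI) of *Pdgfra*, at least 0.3% of their UMIs from *Col1a1*, *Col1a2*, *Col3a1* and *Dcn* together, and less than 0.5% from *Lyz2*. This rule kept 381 of the 6735 day 1 cells that passed the quality filters (5.66%, 95% exact binomial interval 5.12% to 6.24%), out of 11362 such cells in both libraries. Muscle was injured by injection of BaCl2, a salt that kills myofibres, and mononuclear cells were profiled by droplet-based single-cell RNA sequencing at day 1 and at day 3. Both groups were wild-type C57BL/6J male mice of 14 weeks, each day was represented by 1 library, and the cells of each library were pooled from several mice. Tendons were removed before the muscle was digested with enzymes. The cells were freed of debris on a density gradient, sorted on light scatter to remove dead cells, doublets and debris without any lineage marker, and stored frozen before library construction.

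FAPs are mesenchymal cells that lie between the myofibres, carry the receptor PDGFRA, and do not fuse into muscle themselves. After injury they are known to enter the cell cycle, secrete cytokines and matrix, support the satellite cells that rebuild the fibres, and then leave the tissue again through cell death. In chronic disease the same cells can become adipocytes or matrix-producing myofibroblasts, from which their name derives.

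The 381 cells had a median of 27204 UMIs, from 1136 to 101088, and a median of 4909 genes, and held 10961894 UMIs in all out of 74852240 in the library. Median mitochondrial UMIs were 2.32%. The same rule kept 716 of 4627 cells at day 3 (15.5%, 95% exact binomial interval 14.4% to 16.6%), with a median of 25951 UMIs and 20920261 UMIs in all out of a library of 102565783. The mitochondrial limit alone had removed 277 cells at day 1 and 1804 at day 3, so these shares describe the cells that passed and not the tissue. No barcode was shared between passing cells of the libraries. The libraries listed 737280 and 6794880 possible barcodes, so they did not share a barcode set and the chemistry of the kits may have differed. The day after injury, the mice, the library and its chemistry cannot be told apart. Differences between the days below are therefore values of 1 library against another with no replicate check and no p-value. Levels are UMIs per 1000000 (CPM) of the summed UMIs of a group, and their intervals, like those of the ratios and shares, cover counting error only.

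The selected cells held a median of 9 UMIs of *Pdgfra* each, with quartiles of 4 and 14, and 22 of them held a single UMI. The collagens and decorin of the rule took a median of 0.687% of a cell's UMIs, with quartiles of 0.484% and 1.11%. Of 615 day 1 cells with a UMI of *Pdgfra*, 202 failed the matrix minimum alone, 10 failed the *Lyz2* limit alone and 22 failed both, while 42 cells met both limits without a UMI of *Pdgfra*. The cells nearest the matrix minimum had 0.301%, 0.303% and 0.305% on the inside and 0.299%, 0.296% and 0.295% on the outside. For *Lyz2* the values were 0.481%, 0.451% and 0.447% on the inside and 0.525%, 0.532% and 0.569% on the outside. At day 3 only 16 cells failed the matrix minimum alone, and the selected cells there had a median matrix share of 2.23%, so the minimum cut into the *Pdgfra* cells of day 1 far more than into those of day 3.

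The label was checked against defining genes of the cell types that muscle can hold. Of the 5 FAP genes, *Pdgfra* and *Dcn* are part of the rule and their levels do not bear on the label. The other genes of the list, *Prg4*, *Cxcl5* and *Cxcl14*, were chosen with earlier results of these data known. Their levels are thus a description and do not bear on the label either. These genes were at 4144, 2457 and 2234 CPM in the selected cells. In all other day 1 cells they were at 445, 415.5 and 82.1 CPM. Those other cells include the 202 with *Pdgfra* that failed the matrix minimum alone. In 1819 day 1 macrophages the same genes were at 5.15, 15.7 and 7.12 CPM. The macrophages were taken as cells with UMIs of *Adgre1* and *Fcgr1*, at least 0.5% of *Lyz2* and no *Pdgfra*. All 5 mesothelial genes, the satellite cell genes *Pax7* and *Myog*, the mural cell genes *Rgs5*, *Kcnj8* and *Myh11* and the Schwann cell gene *Sox10* had no UMI, which at this depth allows up to 0.274 CPM. The mural cell list summed to 14.7 CPM against 11.3 CPM in all other day 1 cells, most of it *Cspg4* at 13.5 CPM, and the satellite cell and myoblast list to 14.5 against 8.43 CPM, most of it *Des* at 9.94 CPM. The 7 endothelial genes summed to 3.10 CPM. The tendon list was higher than in the rest of the library, at 645.5 CPM against 194.8 CPM in all other day 1 cells and 2.60 CPM in macrophages. Most of it was the matrix glycoprotein gene *Thbs4* at 581 CPM, with the collagen-binding *Fmod* and *Comp* at 34.1 and 16.7 CPM, while the tendon regulators *Scx* and *Mkx* were at 1.37 and 0.365 CPM and the tendon membrane protein gene *Tnmd* was at 8.58 CPM.

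**Figure D1:**
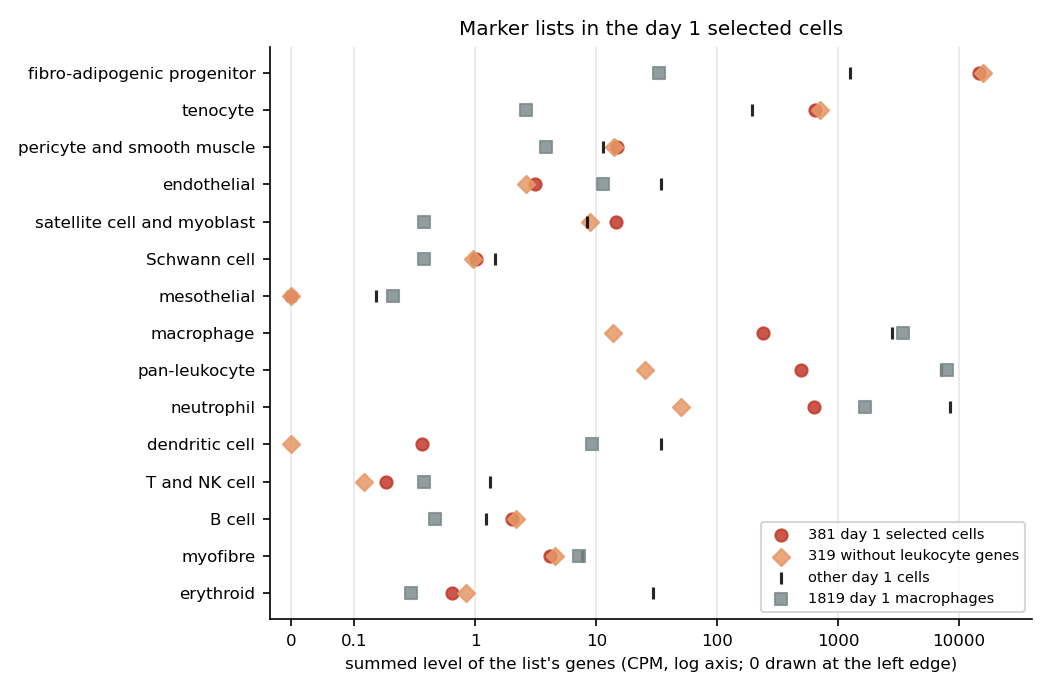
Summed level (CPM, log axis, 0 drawn at the left edge) of each list of defining genes in the 381 selected day 1 cells (circles), the 319 of them without leukocyte genes (diamonds), the other day 1 cells (bars) and the 1819 day 1 macrophages (squares). The FAP list, at 14689 CPM in the selected cells, includes *Pdgfra* and *Dcn*, which chose them. Its other genes were chosen with earlier results of these data known. The other day 1 cells include *Pdgfra* cells under the matrix minimum. The macrophage list drops from 237 to 13.8 CPM when the cells with leukocyte genes are left out.

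Leukocyte RNA was not evenly spread over the selected cells. The leukocyte genes *Ptprc*, *Laptm5*, *Tyrobp*, *Fcer1g*, *Cd53* and *Coro1a* took at least 0.02% of the UMIs in 62 of the 381 cells at day 1 and in 186 of 716 at day 3. This limit was chosen after the data had been seen. In these 62 cells the 6 genes summed to 1988 CPM against 25.5 CPM in the other 319 cells, a gap set by the split itself. The 6 neutrophil genes, which were not used for the split, summed to 2476 against 50.2 CPM. The 8 macrophage genes, likewise not used, summed to 957 against 13.8 CPM. The 62 cells also held more RNA, with a median of 39596 UMIs against 25653. Whether they are droplets that held 2 cells was not tested. The neutrophil genes in the selected cells stood at 7.15% of their level in the RNA of near-empty droplets of the same library at day 1 and 5.22% at day 3, and the 6 leukocyte genes at 6.14% and 10.45% of their level in macrophages of the same day. Without the leukocyte-gene cells these values were 0.574% and 2.94%, and 0.319% and 0.416%, the last pair low by construction. Values without these cells stand beside many of the results below.

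Beyond genes used in every cell, the transcripts with the most UMIs included the metallothionein *Mt1*, decorin (*Dcn*) and gelsolin (*Gsn*), an actin-severing protein. *Mt1* stood at 8008 CPM (95% Poisson interval 7955 to 8062) at day 1, 1842 CPM (1823 to 1860) at day 3 and 1298 CPM in day 1 macrophages. *Gsn* stood at 4749 CPM (4709 to 4790) against 935 CPM (922 to 948) at day 3. Both genes were thus several times higher in the day 1 FAPs, with log2 ratios of 2.12 and 2.35. Against day 3 cells without UMIs of the proliferation genes *Mki67* or *Top2a*, these ratios were 1.67 and 1.72. Lubricin, the joint and fascia lubricant encoded by *Prg4*, was at 4144 CPM (4106 to 4182) at day 1 and 586 CPM (576 to 596) at day 3, a log2 ratio of 2.82 (95% interval 2.79 to 2.85). *Prg4* varied widely among the 381 cells, from 216 to 6471 CPM between the quartiles.

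Against day 3, 10759 genes had at least 100 UMIs over both groups. Of these, 651 were at least 2-fold higher at day 1 (6.05%) and 2004 at least 2-fold lower (18.6%), with a median log2 ratio over all of them of -0.23. With the cells carrying leukocyte genes left out of both days, 9890 genes qualified, of which 658 were higher (6.65%) and 1871 lower (18.9%), with a median of -0.21. Setting the median to 0 gave 1069 higher and 1486 lower, so that ratios below are best read relative to that shift. The counts of genes per list below are likewise to be read beside the shares of all genes, 6.05% higher and 18.6% lower. Of the 25 FAP identity genes, 9 were at least 2-fold higher and 6 at least 2-fold lower, with a median log2 ratio of 0.22, and the counts were again 9 and 6 without leukocyte-gene cells, with a median of 0.13. The list holds *Pdgfra* and *Dcn* of the rule, and without them 8 of 23 were higher and 6 lower, with a median of 0.14. The glucocorticoid-activating enzyme gene *Hsd11b1* (74.7 against 17.6 CPM) and the FAP transcription factor gene *Osr1* (66.1 against 24.1 CPM) were among the higher ones, although the log2 ratio of *Osr1* was 0.89 against day 3 cells without UMIs of the proliferation genes *Mki67* or *Top2a*. *Ly6a*, which encodes the surface protein Sca-1 used to sort FAPs, was at 1487 CPM against 1659 CPM, and *Cd34* was at 159 against 144 CPM. *Lum*, *Fbn1* and *Col15a1*, encoding lumican, fibrillin-1 and a basement membrane collagen, were lower, with log2 ratios of -1.22, -1.68 and -3.48. That of *Lum* was -0.69 with a matrix minimum of 1%.

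**Figure D2:**
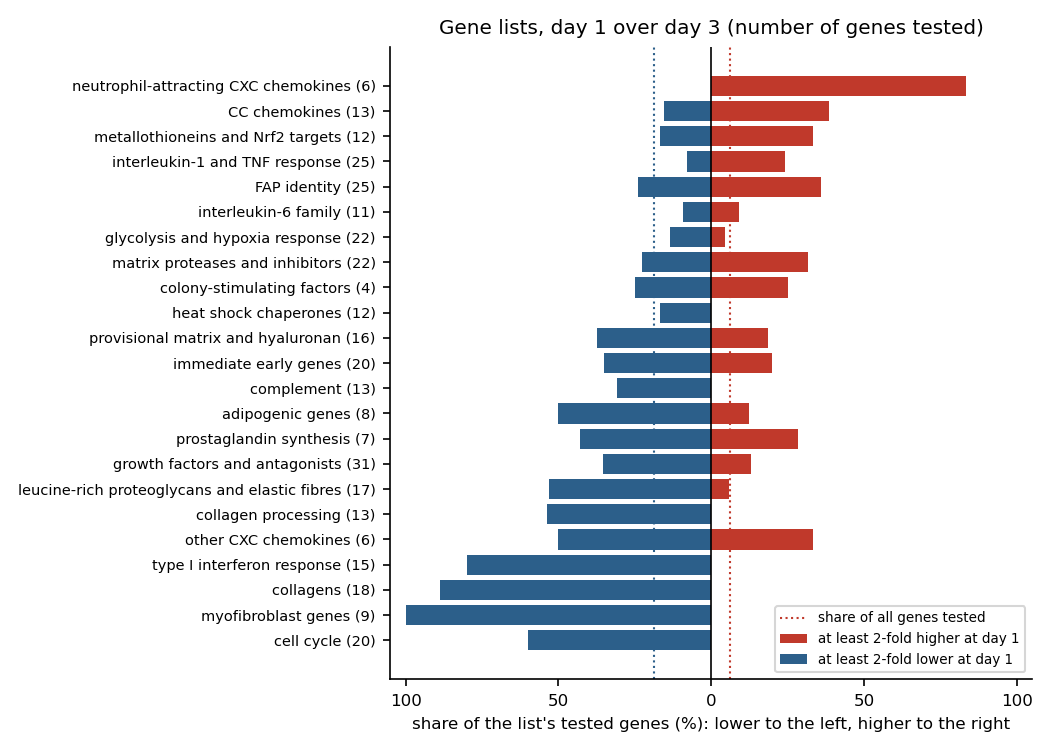
Share of each list's tested genes (%, number of genes in brackets) that were at least 2-fold higher (bars to the right) or at least 2-fold lower (bars to the left) in day 1 than in day 3 FAPs, and the same shares over all 10759 genes (dotted lines at 6.05% and 18.6%). Neutrophil-attracting CXC chemokines lie at the top with 5 of 6 higher, but 3 of 5 without leukocyte-gene cells. All 9 myofibroblast genes and 16 of 18 collagens were lower, and 8 of 8 and 16 of 18 without leukocyte-gene cells.

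The list of neutrophil-attracting CXC chemokines holds ligands of the receptor CXCR2 and the platelet chemokine *Pf4*, which is not one. It had the highest median ratio over day 3 of the 23 lists. Of its 6 genes, 5 were at least 2-fold higher at day 1 and none lower, with a median log2 ratio of 2.27. Without the cells carrying leukocyte genes, 5 could be tested, of which 3 were higher, with a median of 1.51. These were *Cxcl5*, *Cxcl3* and *Pf4*, and *Pf4* was not among the 5 that were higher with all cells. Of the CXCR2 ligands tested, only *Cxcl5* and *Cxcl3* thus stayed at least 2-fold higher. *Cxcl5*, which encodes a CXCR2 ligand of stromal and epithelial cells, stood at 2457 CPM (2428 to 2487) at day 1 and 309 CPM (302 to 317) at day 3, a log2 ratio of 2.99 (2.95 to 3.03). Over 17 settings this ratio ran from 1.99 to 3.22. The transcript was at 15.7 CPM in day 1 macrophages and at 2643 CPM in the FAPs without leukocyte genes. It was thus high in the FAPs and low in the macrophages of the same library. With each cell thinned to 3000 UMIs, 60.3% of 380 day 1 FAPs, 31.4% of 710 day 3 FAPs and 2.16% of 1807 day 1 macrophages held a UMI of *Cxcl5*. The unthinned shares were 73.2%, 58.2% and 8.03% at median depths of 27204, 25951 and 11989 UMIs. *Cxcl5* was also uneven among the cells, with quartiles of 0 and 3106 CPM around a median of 647 CPM.

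The other genes of the neutrophil-attracting list differed in whether the cells with leukocyte RNA carried them. *Cxcl1* was at 2800 CPM (2769 to 2832) at day 1, 1347 CPM (1331 to 1362) at day 3 and 1902 CPM in day 1 macrophages, with a log2 ratio between the days of 1.06 that became 0.92 without the leukocyte-gene cells and 0.64 with a matrix minimum of 1%, and that reached 2-fold in 8 of 17 settings. Its level was nearly the same, 2859 CPM, in the FAPs without leukocyte genes. *Cxcl2* was at 2237 CPM in the 381 cells, but at 778 CPM in the 319 without leukocyte genes and 6936 CPM in the other 62, beside 23058 CPM in macrophages. Its log2 ratio between the days was 1.54, 0.98 without those cells and -0.45 with a matrix minimum of 1%. *Cxcl3* dropped likewise from 304 to 124 CPM without those cells, and remained higher than at day 3 with a log2 ratio of 4.91. The platelet chemokines *Ppbp* and *Pf4* were at 63.9 and 406 CPM in all 381 cells and at 1.55 and 27.2 CPM without the leukocyte-gene cells.

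Promoter windows of *Cxcl1* and *Cxcl3* are shown because both genes were at least 2-fold higher in day 1 than in day 3 FAPs and because NF-kB, the factor that interleukin-1 and TNF switch on, is a known regulator of this chemokine family. Each window runs from 250 bases before to 50 after the gene start in RefSeq (GRCm38.p6), both on the plus strand, *Cxcl1* at chr5:90890995-90891294 and *Cxcl3* at chr5:90785851-90786150. Capitals mark every match to GGGNNNTTCC on either strand, of which each window has 3, with 1 pair on opposite strands overlapping and shifted by 1 base.
Cxcl1: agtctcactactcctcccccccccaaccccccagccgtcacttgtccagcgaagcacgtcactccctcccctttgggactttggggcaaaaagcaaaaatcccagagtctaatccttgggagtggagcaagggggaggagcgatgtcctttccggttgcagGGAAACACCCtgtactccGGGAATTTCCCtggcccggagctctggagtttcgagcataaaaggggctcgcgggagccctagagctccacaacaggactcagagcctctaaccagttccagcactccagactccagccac
Cxcl3: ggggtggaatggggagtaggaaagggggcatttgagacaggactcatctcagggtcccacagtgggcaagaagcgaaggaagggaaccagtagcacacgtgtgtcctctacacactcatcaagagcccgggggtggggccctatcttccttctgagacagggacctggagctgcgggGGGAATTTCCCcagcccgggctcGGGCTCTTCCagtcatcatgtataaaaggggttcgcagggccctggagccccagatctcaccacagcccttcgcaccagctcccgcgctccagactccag
*Cxcl2* also had 3 matches and *Ppbp* and *Pf4* had 0, while *Cxcl5* had no window. Of 32851 promoter windows, 5.56% held at least 1 match and 0.0213% held at least 3. These are matches of letters in the sequence, not measured binding.

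Among the remaining CXC chemokines, 2 of 6 were at least 2-fold higher at day 1 and 3 lower. *Cxcl14*, a chemokine of resting stroma and epithelium, was at 2234 CPM (2206 to 2262) against 628 CPM (617 to 639), a log2 ratio of 1.83, and at 7.12 CPM in day 1 macrophages. *Cxcl13*, the B cell attractant, was at 321 against 48.8 CPM, but 12.4% of the thinned day 1 cells held it, beside 0.166% of thinned macrophages. *Cxcl12*, the ligand of CXCR4, ran the other way, at 192 CPM (184 to 200) against 879 CPM (866 to 892), a log2 ratio of -2.20. The interferon-inducible *Cxcl9* and *Cxcl10* were also lower at day 1, at 3.28 against 45.2 CPM and 22.3 against 191 CPM.

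CC chemokines draw monocytes, eosinophils and lymphocytes. Of 13 tested, 5 were at least 2-fold higher at day 1 and 2 lower, and without leukocyte-gene cells 3 of 11 were higher and 3 lower. *Ccl2*, the main ligand of the monocyte receptor CCR2, was at 2849 CPM (2817 to 2881) at day 1 and 1230 CPM (1215 to 1245) at day 3, with log2 ratios of 1.21 for all cells, 1.24 without leukocyte-gene cells and 0.45 with a matrix minimum of 1%. Day 1 macrophages held still more, at 4352 CPM. *Ccl7*, another CCR2 ligand, was at 1798 against 1224 CPM, a log2 ratio of 0.56. The eosinophil attractant *Ccl11* was at 102 CPM in the FAPs, 4.84 CPM in all other day 1 cells and 0.0419 CPM in macrophages, and at 66.3 CPM at day 3. *Ccl6* and *Ccl24* passed 2-fold over day 3 but were at 16.1 and 0.837 CPM without the leukocyte-gene cells, from 380 and 23.0 CPM with them.

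**Figure D3:**
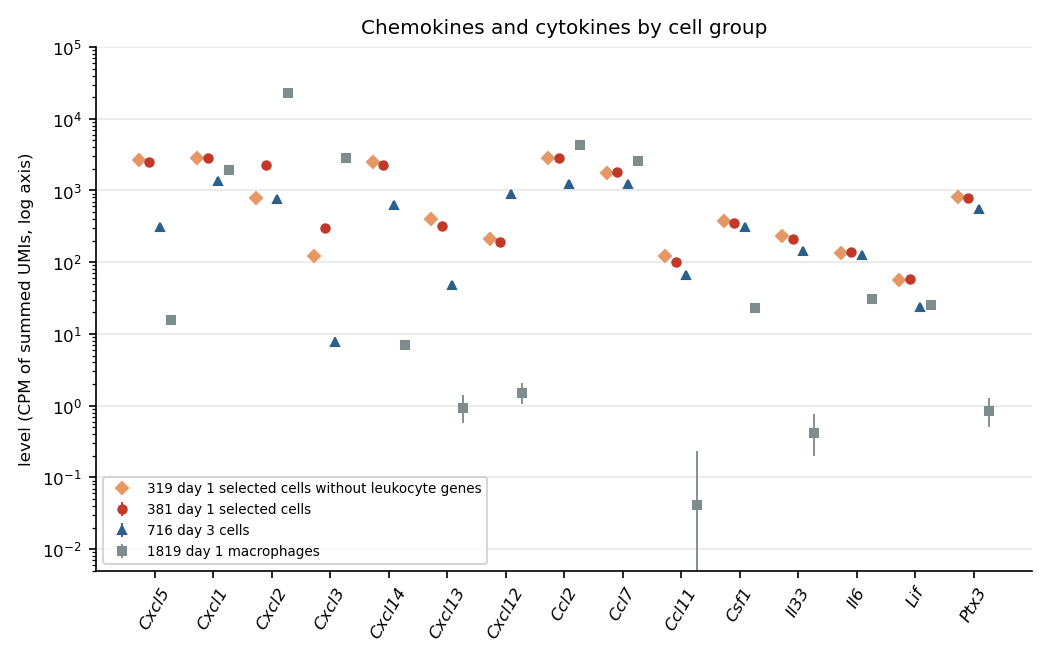
Level (CPM, log axis) of chemokines and cytokines in the 381 selected day 1 cells (circles), the 319 without leukocyte genes (diamonds), the 716 day 3 cells (triangles) and the 1819 day 1 macrophages (squares), with 95% Poisson intervals for counting error where they are wider than the symbol. *Cxcl5*, *Cxcl14* and *Cxcl13* lie high in FAPs and low in macrophages, whereas *Cxcl2* and *Cxcl3* lie highest in macrophages.

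Of the interleukin-6 and colony-stimulating factor families, 1 of 11 and 1 of 4 genes were at least 2-fold higher at day 1 than at day 3 and 1 of each lower. Without leukocyte-gene cells 2 of 10 and 0 of 3 were higher and again 1 of each lower. Of all genes, 6.05% were higher and 18.6% lower, so counts this small do not set the families apart. *Il6* was at 137 CPM (130 to 144) at day 1, 126 CPM (122 to 131) at day 3 and 30.7 CPM in day 1 macrophages. *Csf1*, the growth factor of macrophages, was at 354 against 309 CPM, and at 23.1 CPM in the macrophages themselves. *Lif* was higher at day 1, at 58.6 CPM (54.1 to 63.3) against 23.9 CPM (21.9 to 26.1), a log2 ratio of 1.29 that was 0.92 after thinning. *Csf2*, with too few UMIs to be tested, was at 4.38 CPM against 0.0478 CPM, and 0.0419 CPM in macrophages. It had UMIs in 3.15% of the day 1 FAPs, 0.263% after thinning, against 0.0550% of unthinned macrophages.

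Of 25 genes of the interleukin-1 and TNF response, 6 were at least 2-fold higher at day 1 and 2 lower, and 4 and 3 of 22 without leukocyte-gene cells. The ligand genes *Il1b* and *Tnf* were carried by the cells with leukocyte RNA, at 464 and 66.3 CPM in all 381 cells but 30.7 and 4.30 CPM in the 319 others. *Sod2*, a mitochondrial superoxide dismutase induced by both cytokines, was at 394 CPM (382 to 405) with them and 388 CPM without them, and at 320 to 476 CPM in the 5 subclusters of these cells, against 100 CPM (95.7 to 104) at day 3. *Lcn2*, encoding an iron-chelator binding protein, was at 126 against 22.04 CPM. The alarmin *Il33* was at 208 CPM (200 to 217) against 145 CPM (140 to 150) and near 0 in macrophages, at 0.419 CPM. Its receptor gene *Il1rl1* was at 219 CPM (210 to 228) against 19.2 CPM (17.3 to 21.1), a log2 ratio of 3.51. The receptor for interleukin-1 itself, *Il1r1*, was lower at day 1, at 98.4 against 247 CPM, as was the adhesion molecule *Vcam1*, at 64.2 against 172 CPM.

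Of 7 prostaglandin genes tested, 2 were at least 2-fold higher and 3 lower, or 1 and 2 without leukocyte-gene cells. Of all genes, 6.05% were higher and 18.6% lower. None of the enzymes named below was among the 3 lower. *Ptgis*, which encodes prostacyclin synthase, was at 175 CPM (168 to 183) at day 1 and 13.2 CPM (11.7 to 14.8) at day 3, a log2 ratio of 3.73 (3.55 to 3.92), with UMIs in 27.9% and 2.54% of thinned cells and 0.0553% of thinned macrophages. Macrophages held 0.251 CPM of it. *Ptgs2*, encoding the inducible cyclooxygenase that supplies its substrate, was at 368 against 176 CPM, with a log2 ratio of 1.06 that was 0.77 without leukocyte-gene cells, and was higher in macrophages at 1300 CPM. *Ptges*, which makes prostaglandin E2, was at 47.2 against 38.9 CPM.

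Metallothioneins bind zinc and copper and are induced by metals, glucocorticoids and oxidative stress. Besides *Mt1*, *Mt2* was at 4102 CPM (4065 to 4141) at day 1, 747 CPM (735 to 758) at day 3 and 75.3 CPM in day 1 macrophages, a log2 ratio between the days of 2.46 (2.43 to 2.48). Without the leukocyte-gene cells the log2 ratios of *Mt1* and *Mt2* were 2.11 and 2.37. The quartiles over day 1 cells were 3656 and 10583 CPM for *Mt1*, above the upper quartile of 2704 CPM over day 3 cells. Of 12 metallothioneins and targets of the oxidative stress factor Nrf2, 4 were at least 2-fold higher and 2 lower at day 1, and 5 and 1 of 11 without leukocyte-gene cells. *Srxn1*, encoding sulfiredoxin, was at 69.7 against 27.1 CPM, a ratio under 2-fold with a matrix minimum of 1%, whereas *Nqo1* was at 0.639 against 5.07 CPM and the secreted peroxidase gene *Gpx3* at 306 against 782 CPM. *Slc7a11*, a cystine transporter gene, was at 96.1 CPM with the leukocyte-gene cells and 21.2 CPM without them.

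The *Mt1* and *Mt2* promoter windows are shown as those of the stress-response pair with the highest levels in day 1 FAPs, both on the plus strand of chromosome 8 in RefSeq (GRCm38.p6), at chr8:94178839-94179138 and chr8:94172368-94172667. Capitals mark matches on either strand to TGCNCNC, the core letters of the metal response element, with 3 in *Mt1* and 6 in *Mt2*, none of which overlap.
Mt1: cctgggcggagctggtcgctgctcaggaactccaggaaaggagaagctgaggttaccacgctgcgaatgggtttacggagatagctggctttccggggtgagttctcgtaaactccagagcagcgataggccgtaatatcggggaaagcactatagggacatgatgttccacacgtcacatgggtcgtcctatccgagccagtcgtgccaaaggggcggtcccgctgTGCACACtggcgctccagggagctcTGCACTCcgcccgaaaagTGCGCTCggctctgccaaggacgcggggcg
Mt2: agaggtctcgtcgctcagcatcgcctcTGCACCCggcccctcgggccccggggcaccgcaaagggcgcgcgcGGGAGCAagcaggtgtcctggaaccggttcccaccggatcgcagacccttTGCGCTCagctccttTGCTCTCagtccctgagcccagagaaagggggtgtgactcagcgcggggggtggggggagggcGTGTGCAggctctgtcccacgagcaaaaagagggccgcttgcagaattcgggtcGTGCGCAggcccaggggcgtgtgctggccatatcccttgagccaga
The pattern searched is short and common, as 51.0% of the 32851 windows held at least 1 match, 7.10% at least 3 and 0.225% at least 6. Of the 9 list genes with a window, 6 held a match.

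Most collagen genes were lower at day 1. Of 18 collagens, 16 were at least 2-fold lower than at day 3 and none higher, with a median log2 ratio of -2.32 and summed levels of 4512 against 26642 CPM. Without leukocyte-gene cells the sums were 4810 and 29137 CPM. The rule itself used *Col1a1*, *Col1a2* and *Col3a1* as a minimum in both days. Without these, 13 of 15 collagens were lower and none higher, with a median of -2.23 and sums of 2150 against 6764 CPM. Of the genes of the rule, *Col3a1* was at 1171 CPM (1150 to 1191) against 9752 CPM (9709 to 9794). *Col5a1*, outside the rule, was at 74.9 CPM (69.9 to 80.2) against 697 CPM (686 to 709), a log2 ratio of -3.22. The pair that was not lower was *Col4a1* and *Col4a2*, which form the chains of basement membrane collagen IV, at 552 against 401 CPM and 261 against 185 CPM. Of 13 genes for collagen processing, 7 were lower (9 without leukocyte-gene cells) and none higher. Among the lower ones was the cross-linking enzyme gene *Lox*, at 494 against 1109 CPM. Its log2 ratio of -1.17 was -0.94 with the median set to 0 and -0.53 with a matrix minimum of 1%.

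Of 17 small proteoglycan and elastic fibre genes, 9 were lower and 1, *Dcn*, higher. Decorin, which binds and spaces collagen fibrils, was at 5505 CPM (5461 to 5549) against 2082 CPM (2063 to 2102), a log2 ratio of 1.40, but its level was part of the rule, and the ratio was 0.88 against day 3 cells without UMIs of *Mki67* or *Top2a*. Its relatives biglycan (*Bgn*), osteoglycin (*Ogn*) and asporin (*Aspn*) were at 997 against 3104, 52.8 against 441 and 20.2 against 724 CPM. Of 16 provisional matrix genes, 3 were higher (*Prg4*, *Has1* and *Ccn2*) and 6 lower. The hyaluronan synthases were divided, with *Has1* at 310 CPM (300 to 320) against 151 CPM (146 to 156) and *Has2* at 18.5 CPM (16.1 to 21.2) against 86.4 CPM (82.4 to 90.5). Without leukocyte-gene cells the log2 ratios of *Has1* and *Ccn2* were 0.97 and 0.99, just under 2-fold, and *Prg4* was the 1 gene of 16 that passed it. *Ptx3*, whose product cross-links hyaluronan, was at 780 against 549 CPM and at 0.837 CPM in macrophages. Periostin (*Postn*), fibronectin (*Fn1*) and the collagen-binding *Sparc* were lower, with log2 ratios of -3.63, -1.92 and -1.38, that of *Sparc* being -0.85 with a matrix minimum of 1%.

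**Figure D4:**
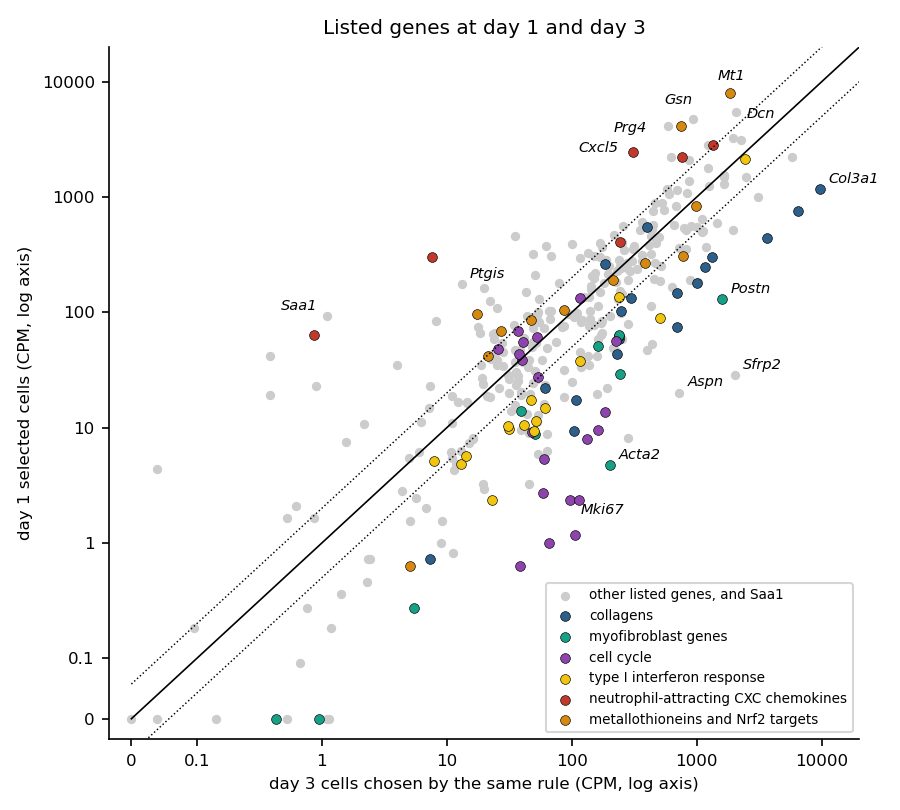
Level of each listed gene and of *Saa1* (CPM, log axes) in the 381 day 1 FAPs against the 716 day 3 FAPs, with the line of equal levels and dotted lines at 2-fold. *Mt1*, *Gsn*, *Prg4* and *Cxcl5* lie above the lines and *Col3a1*, *Postn*, *Sfrp2*, *Aspn*, *Acta2* and *Mki67* below them.

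Of 22 proteases and inhibitors, 7 were higher and 5 lower, and 6 and 5 without leukocyte-gene cells. Over all genes, 6.05% were higher and 18.6% lower, so the share of lower ones was near that of all genes. *Timp1*, an inhibitor of metalloproteinases, was at 2105 CPM (2078 to 2132) against 866 CPM (853 to 879), and *Mmp3*, encoding stromelysin-1, at 164 CPM (156 to 172) against 19.98 CPM (18.11 to 21.99). *Mmp3* was found in few cells, 11.8% after thinning, and at 0.167 CPM in macrophages. The membrane protease gene *Mmp14* was lower, at 79.9 against 280 CPM. Members of the plasminogen system were higher, with the urokinase gene *Plau* at 93.1 against 43.9 CPM, its receptor *Plaur* at 108 against 25.4 CPM, and the inhibitor *Serpine2* at 329 against 136 CPM. Against day 3 cells without *Mki67* or *Top2a* UMIs, *Plau* and *Serpine2* were under 2-fold. *Serpinb2*, encoding another inhibitor of urokinase, had the highest ratio of the genes tested, 41.7 against 0.382 CPM, but was at 161 CPM in day 1 macrophages and at 27.6 CPM in the FAPs without leukocyte genes.

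Of 31 growth factor and antagonist genes tested, 11 were lower and 4 higher, beside 18.6% and 6.05% of all genes, and 11 and 3 of 28 without leukocyte-gene cells. Among the higher ones were *Igfbp3* at 84.1 CPM (78.8 to 89.7) against 8.22 CPM (7.04 to 9.55), *Inhba*, the activin A subunit, at 64.8 against 23.3 CPM (under 2-fold against day 3 cells without *Mki67* or *Top2a* UMIs), and *Areg*. *Areg* was at 7.48 CPM in all the cells and 0.478 CPM without leukocyte-gene cells. The Wnt antagonists *Sfrp2* and *Sfrp1* were far lower, at 28.6 CPM (25.6 to 32.0) against 2015 CPM (1996 to 2034) and 8.21 against 282 CPM. *Igf1*, a growth factor for regenerating fibres, was at 46.5 CPM (42.6 to 50.7) against 225 CPM (219 to 232), and *Tgfb3* was at 5.93 against 54.2 CPM. The activin antagonist *Fst*, which encodes follistatin, was at 221 against 153 CPM. The vasodilator peptide gene *Adm* was at 212 CPM (204 to 221) against 50.6 CPM (47.6 to 53.7). It was the single gene of 22 for glycolysis and the hypoxia response that was at least 2-fold higher, beside 3 lower. Its log2 ratio of 2.07 was 1.29 against day 3 cells without *Mki67* or *Top2a* UMIs.

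Of 20 cell cycle genes, 12 were lower at day 1 and none higher, or 12 lower and 2 higher without leukocyte-gene cells, and the list summed to 589 against 1698 CPM. The mitotic genes *Mki67* and *Ccnb2* were at 2.37 CPM (1.55 to 3.48) against 97.4 CPM (93.2 to 102) and at 1.00 against 65.3 CPM. After thinning, *Mki67* was found in 0.263% of day 1 FAPs, 16.8% of day 3 FAPs and 0.775% of day 1 macrophages, and unthinned in 2.36% of day 1 FAPs. Among the genes of DNA replication, *Mcm2*, part of the replicative helicase, was at 48.4 against 25.7 CPM, with log2 ratios of 0.92 for all cells and 1.32 without leukocyte-gene cells, and the replication clamp gene *Pcna* was at 133 against 117 CPM. In macrophages *Mcm2* was at 2.64 CPM. *Hmga1*, encoding a chromatin protein of growing cells, was at 82.0 CPM (76.7 to 87.5) against 5.26 CPM (4.32 to 6.34). Of the 10 genes with the lowest ratios, 9 had no UMI at day 1, and the replication-linked histone gene *Hist1h2ae* was at 41.8 CPM at day 3, which gives a log2 ratio of -7.25 or lower when 3 counts over the day 1 group are taken as the floor.

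Myofibroblast genes were lower at day 1. All 9 tested myofibroblast genes were at least 2-fold lower than at day 3, with a summed level of 363 against 2784 CPM, and all 8 tested without leukocyte-gene cells were as well. Smooth muscle actin (*Acta2*) was at 4.74 CPM (3.54 to 6.22) against 204 CPM (198 to 210). The adipogenic list was mixed, summing to 2210 against 1613 CPM, and without leukocyte-gene cells 3 of 8 genes were lower and 1 higher. With all cells 4 of 8 were lower, including the master regulator *Pparg* at 1.00 against 8.94 CPM and lipoprotein lipase (*Lpl*) at 47.4 against 401 CPM, and 1, *Cebpb*, was higher. *Cebpb* was at 1178 CPM against 576 CPM, with a log2 ratio of 1.03 that became 0.83 without leukocyte-gene cells. The adipocyte genes *Adipoq* and *Plin1* had no UMI at day 1.

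Interferon genes were lower as a group, with 12 of 15 at least 2-fold lower and none higher, a median log2 ratio of -1.62. The ubiquitin-like *Isg15* was at 38.1 CPM (34.6 to 42.0) against 117 CPM (113 to 122). *Ifitm3*, encoding an antiviral membrane protein, was at 2158 against 2451 CPM. Immediate early genes were mixed, with 4 of 20 higher and 7 lower. *Klf4*, *Nr4a1*, *Nr4a2* and *Fosl1* were higher, with log2 ratios of 1.24, 1.35, 1.80 and 1.16. That of *Klf4* was 0.80 against day 3 cells without *Mki67* or *Top2a* UMIs, and that of *Fosl1* 0.54 with a matrix minimum of 1%. *Egr1* was at 184 against 1032 CPM and *Fos* at 547 against 1006 CPM. Of 12 heat shock genes, none was higher and 2, *Hspb1* and *Dnajb1*, were lower, a share near the 18.6% of all genes, and *Hspb1* was at -0.79 with a matrix minimum of 1%. Of 13 complement genes, none was higher and 4 were lower, or 3 of 10 without leukocyte-gene cells.

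By the size of the ratio alone, the genes furthest above day 3 without leukocyte-gene cells were *Serpinb2*, the acute-phase genes *Saa1* and *Saa2*, the keratinocyte-associated *Krtdap* and *Cxcl3*, followed by *Alpl*, *Hmga1*, *Dmkn* and *Upp1*. Most were carried by few cells. *Saa1* was at 92.4 CPM (86.8 to 98.3) against 1.10 CPM (0.697 to 1.65), with UMIs in 6.56% of the day 1 FAPs, 2.63% after thinning, against 0.0553% of thinned macrophages. *Saa2*, a near-identical copy whose reads can be confused with those of *Saa1*, was at 10.7 CPM in 1.31% of cells. *Hmga1* was broader, in 18.4% of thinned day 1 FAPs, 1.27% of day 3 FAPs and 9.52% of macrophages. Alkaline phosphatase (*Alpl*) was at 27.3 against 1.20 CPM, in 8.42% of thinned day 1 FAPs, and at 0.0419 CPM in macrophages.

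Set against the macrophages of the same library, 9724 genes qualified, of which 3330 were at least 2-fold higher in the FAPs (34.2%) and 1631 lower (16.8%), with a median log2 ratio of 0.48. The FAPs were chosen for *Pdgfra* and matrix RNA and the macrophages for *Lyz2*, *Adgre1* and *Fcgr1*, so these counts are a description. All 17 tested collagens and all 16 small proteoglycans and elastic fibre genes were higher in FAPs, as were 19 of 27 growth factors and 15 of 20 proteases and inhibitors. Chemokines were divided, with 1 of 6 neutrophil-attracting CXC genes (*Cxcl5*) and 2 of 12 CC genes higher in FAPs and 4 and 7 lower. Of 22 glycolysis and hypoxia genes, 11 were lower in FAPs and 1 higher. The genes with no UMI in the macrophages and the highest FAP levels included *Igfbp5* at 87.5 CPM, the retinol carrier *Rbp4* at 79.2 CPM and the limb patterning gene *En1* at 41.9 CPM, at least 9.44, 9.30 and 8.38 higher on the log2 scale with the floor of 3 counts over the group. The 381 FAPs and 1819 macrophages had a median of 27204 and 11989 UMIs, and thinned to 3000 UMIs the number of genes higher in FAPs was 1241.

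The 381 cells were not uniform. Clustering of these cells alone gave 5 subclusters, which are called by their leading genes and have been given no cell type name. Since the clusters were drawn from the same UMIs, their levels are a description. The first held 107 cells (28.1%). It is called by *Saa2*, its first gene by ratio, at 26.1 CPM, although only 1.31% of the 381 cells held a UMI of that gene. It had, of the 5, the highest levels of *Cxcl5* at 5484 CPM, *Cxcl1* at 4749 CPM and *Ccl2* at 4756 CPM, beside *Tnc*, *Igfbp3* and *Tnfrsf11b*, the decoy receptor of RANKL. The subcluster led by *Angptl7* held 101 cells (26.5%), with *Thbs4* at 1819 CPM, *Mgp*, an inhibitor of calcification, at 1538 CPM, and *Fmod* and *Comp* of tendon and cartilage, and had the highest *Prg4*, at 9270 CPM against 801 CPM in the *Saa2* subcluster. The tendon list summed to 2012 CPM here, against 2.01 to 489 CPM in the other subclusters. *Cxcl5* was at 610 CPM in these cells.

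The subcluster led by *Krtdap* held 64 cells (16.8%) and shared *Sbsn* and *Dmkn* with *Pi16* at 1933 CPM, *Dpp4* and *Cd55*, of which *Pi16* and *Dpp4* are known to mark a fibroblast subset found in many tissues. It held the most *Ly6a*, at 4348 CPM, *Cd34*, at 376 CPM, *Mt1*, at 11971 CPM, *Ptgis*, at 484.5 CPM, and *Cxcl13*, at 1443 CPM, and the least *Cxcl14*, at 130.5 CPM. The subcluster led by *Hmga2* held 47 cells (12.3%) with the replication genes *Fen1*, *Rfc5* and *Ccne1* among its leaders, *Mcm2* at 93.4 CPM against 35.2 to 50.2 CPM in the others, and *Mki67* at 3.25 CPM. *Il6* was lowest there, at 21.1 CPM, against 232 CPM in the *Saa2* subcluster. The remaining 62 cells (16.3%), led by *Sirpb1c* with *C1qa*, *Aif1* and *Trem2*, were 61 of them cells with leukocyte genes. *Pdgfra* was at 309 to 374.5 CPM in all 5. At a resolution of 0.3 the clustering gave 4 subclusters, with the *Angptl7* and *Hmga2* cells merged, and the *Krtdap* and *Sirpb1c* cells stayed whole. At a resolution of 1.0 it gave 10. With 20 principal components it gave 5, in which 47 of the 64 *Krtdap* cells stayed together and 82 *Angptl7* cells and 36 *Hmga2* cells fell into the same subcluster of 142.

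**Figure D5:**
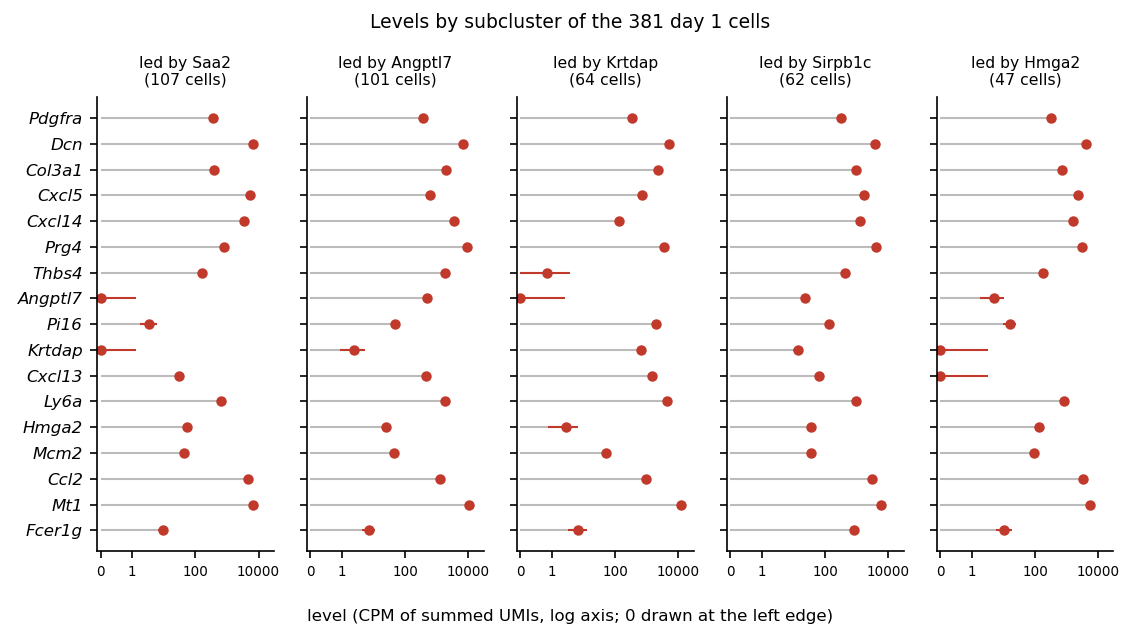
Level (CPM, log axis, 0 drawn at the left edge) of chosen genes in each of the 5 subclusters, with 95% Poisson intervals for counting error. *Pdgfra* lies between 309 and 374.5 CPM in all 5, *Cxcl5* and *Ccl2* peak in the subcluster led by *Saa2*, *Prg4* and *Thbs4* in that led by *Angptl7*, *Pi16*, *Ly6a* and *Cxcl13* in that led by *Krtdap*, and *Fcer1g* in that led by *Sirpb1c*.

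Because the matrix minimum removed so many *Pdgfra* cells at day 1, the cells on both sides of it were laid out by their matrix share, without leukocyte-gene cells and under the *Lyz2* limit. From under 0.1% through 0.1% to 0.3%, 0.3% to 0.6%, 0.6% to 1% and above 1% there were 36, 104, 120, 93 and 106 cells, with median depths from 22110 to 28666 UMIs. *Cxcl5* was at 4367, 3825, 3590, 2707 and 1213 CPM in these bins, and *Ccl2* at 5560, 5559, 3796, 2467 and 1687 CPM. Both chemokines were thus highest in the *Pdgfra* cells with the least collagen and decorin RNA, including cells that the rule left out. *Cxcl14* ran from 549 and 374 CPM in the lowest bins to 4774 CPM in the highest, *Mt1* from 3105 to 12819 CPM, *Gsn* from 1124 to 7300 CPM and *Ly6a* from 245 to 2687 CPM. *Hmga1* and *Hmga2* ran the other way, from 161 to 36.7 CPM and from 175 to 16.9 CPM. *Prg4* was less graded, from 2446 to 4798 CPM. The 140 *Pdgfra* cells under the minimum held 885 CPM of *Cxcl3* and 137 CPM of the opioid precursor *Penk*, against 124 and 36.7 CPM in the 319 selected cells, and 15.8 CPM of *Pi16* against 364 CPM. What sets these cells apart was not tested.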

How the data were processed

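Per the file headers and the labels, the authors made droplet 3′ libraries from thawed cells and deposited unfiltered UMI counts per gene and barcode, aligned to mm10 with Cell Ranger (version 5.0.0 in the submitters' processing notes, 4 in the file headers). Each of the 2 libraries was used with its 32285 genes as deposited. Cells were the 7367 (day 1) and 6640 (day 3) barcodes with most UMIs, kept at 1000 or more UMIs, 200 or more genes and at most 7.5% mitochondrial UMIs. UMIs were summed over the cells of a group and scaled to CPM, with exact Poisson intervals. Log2 ratios had 0.5 counts added and exact binomial intervals, and genes with at least 100 UMIs over both groups were compared at 2-fold. Groups came from the labels. No test across samples was possible with 1 library per day.

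Scrublet marked 1 of 6735 cells at day 1 (0.0149%) and 0 at day 3. Its call was not used, and no doublets were removed. An alternative removed the highest scores, 363 and 171 cells, of which 38 and 43 were selected cells. Shares were also computed after thinning to 3000 UMIs, which left out 1 day 1 FAP, 6 day 3 FAPs and 12 macrophages. Subclusters used 2000 variable genes, 10 principal components, 15 neighbours and Leiden resolution 0.5. The computations used Python 3.11.15, numpy 2.4.6, scipy 1.17.1, pandas 2.3.3, scanpy 1.11.5 and anndata 0.12.19, and were tested on simulated data. The members, gene lists and comparisons were chosen with earlier results of these data known. Named genes were list members, the 10 genes with most UMIs or with the highest or lowest ratio of each comparison, and the 8 leading genes of each subcluster. Alternatives changed the call of cells, each limit of the rule, doublets, depth, ambient or macrophage RNA, centring and the filter on low counts, and one left out cells with leukocyte genes, a limit chosen after the data had been seen, as were the list counts without the genes of the rule.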

Additional observations from a re-analysis of the deposited data

How the results depend on the processing

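No paired analysis was possible because each day had 1 library from different mice. The numbers of genes past 2-fold over day 3, 651 higher and 2004 lower, were within 1.5 times of those under the alternatives except as follows. Thinning to 3000 UMIs gave 374 and 629, with fewer genes reaching 100 UMIs, and 1241 higher over macrophages against 3330. Setting the median to 0 gave 1069 higher and 1486 lower. A minimum of 20 UMIs gave 3134 lower, a minimum of 1000 UMIs gave 331 and 581, and a 4-fold limit gave 93 and 606. Directions turned for few genes. With a matrix minimum of 1% the log2 ratio over day 3 was -0.45 for *Cxcl2* (1.54 before) and -0.81 for *Tnf* (1.83), and that over macrophages was -1.25 for *Upp1* (1.15). *Il1b* (3.73) became -8.57 with ambient RNA and -6.07 with macrophage RNA subtracted, and *Ccl24* (4.63) -2.05 with the latter. Comparing with day 3 cells without *Mki67* or *Top2a* UMIs turned these 2 genes to 5.17 and 6.91 by construction. The other causes were not tested. With the matrix minimum of 1%, *Ccl2*, *Cxcl1*, *Fosl1*, *Srxn1*, *Slc7a11* and *Plau* were no longer 2-fold higher and *Lum*, *Lox*, *Sparc* and *Hspb1* no longer 2-fold lower, and as a mean over cells *Lif*, *Inhba* and *Has1* were under 2-fold. *Cxcl1* passed 2-fold in 8 and *Has1* in 10 of 17 settings, the one reported included. Against day 3 cells without *Mki67* or *Top2a* UMIs, *Dcn*, *Osr1*, *Klf4*, *Serpine2*, *Inhba*, *Plau*, *Ccn2*, *Ptgs2*, *Cebpb*, *Cxcl1*, *Has1*, *Penk*, *Pi16* and *Thbs4* were under 2-fold. *Cxcl5* ranged from 1.99 to 3.22, *Prg4* from 2.12 to 3.05 and *Col1a1* from -3.20 to -2.13 in log2 over the alternatives. Counting intervals are narrow at this depth and say nothing of the spread between mice or libraries, which could not be measured.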
